A study of Mus musculus with 22 samples.

Results

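The vascular endothelial growth factor (VEGF) ligands and receptors were examined in lung RNA from mice kept in normoxia or hypoxia with or without the senolytic drug ABT-263. The set held 10 genes, taken from the deposited table by gene name: the ligands Vegfa, Vegfb, Vegfc and Pgf, the receptor tyrosine kinases Flt1, Kdr and Flt4, the co-receptors Nrp1 and Nrp2, and Esm1, an endothelial proteoglycan whose transcription responds to VEGF-A. They are 10 of 54532 genes in the table, and all 10 were among the 16638 genes with enough counts to be tested. The 22 libraries came from lungs of young male C57BL6/j mice after 8 days. The groups were normoxia with vehicle (5 libraries), normoxia with ABT-263 at 50 mg/kg/day (6), hypoxia with vehicle (6) and hypoxia with the same dose of ABT-263 (5). All groups share strain and sex, and the labels name no engineered allele in any of them. ABT-263, also named navitoclax, blocks survival proteins of the BCL-2 family and is used to kill senescent cells. The oxygen fraction and the ages of the mice are not given in the sources used here.

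VEGF-A binds the kinases FLT1 (VEGFR1) and KDR (VEGFR2) on blood vessel endothelium. KDR carries most of the mitogenic and permeability signal, while FLT1 binds VEGF-A tightly, signals weakly and is also made as a soluble decoy. VEGF-B and placental growth factor (Pgf) bind FLT1, VEGF-C and VEGF-D bind FLT4 (VEGFR3), the main receptor of lymphatic endothelium, and the neuropilins NRP1 and NRP2 are co-receptors that also bind class 3 semaphorins. In the adult lung the alveolar epithelium is a known source of VEGF-A, and the alveolar capillaries carry its receptors. VEGFA is a classical target of hypoxia-inducible factor in cultured cells.

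Library totals ran from 11509007 to 15744193 expected counts. Lung RNA gives a level over all cells, so fewer cells of a type and less RNA per cell cannot be told apart. In 3 libraries (replicate 1 of normoxia ABT-263, of hypoxia vehicle and of hypoxia ABT-263) the title gave one treatment and the treatment tag the other, and groups follow the titles. Results without these 3 libraries are given beside those that move. The second principal component (11.5% of the variance) was highest in hypoxia ABT-263 replicate 4 and in normoxia ABT-263 replicates 6 and 2. The lung's defining markers were present in every group, with Sftpc of alveolar type 2 cells at a mean of 25299 CPM, Ager of alveolar type 1 cells at 2073 CPM and the endothelial adhesion protein Pecam1 at 556 CPM in normoxia with vehicle. CPM are counts scaled to a common library total.

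Sequences upstream of the start site are shown for Vegfc, Esm1 and Vegfa because these genes rose, fell and did not pass the test in hypoxia, respectively. Each is the 250 bases before a start site in RefSeq (GRCm38.p6), in lower case and in the direction of transcription. None of the 3 windows overlaps an exon in GENCODE M21. Capitals mark the GC box GGGCGG or its reverse complement CCGCCC, a motif added after the sequences were seen. The windows are chr8:54077282-54077531 on the plus strand for Vegfc, chr13:113209409-113209658 on the plus strand for Esm1 and chr17:46032378-46032627 on the minus strand for Vegfa.
Vegfc: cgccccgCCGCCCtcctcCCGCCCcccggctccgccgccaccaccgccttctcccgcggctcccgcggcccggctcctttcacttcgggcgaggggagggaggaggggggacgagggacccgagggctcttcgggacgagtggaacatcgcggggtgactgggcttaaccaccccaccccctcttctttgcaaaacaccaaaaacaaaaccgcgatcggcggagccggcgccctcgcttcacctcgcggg
Esm1: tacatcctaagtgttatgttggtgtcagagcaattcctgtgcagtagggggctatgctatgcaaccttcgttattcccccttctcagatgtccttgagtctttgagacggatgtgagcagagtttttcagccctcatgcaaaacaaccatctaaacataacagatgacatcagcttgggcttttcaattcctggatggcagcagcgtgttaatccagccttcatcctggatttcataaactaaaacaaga
Vegfa: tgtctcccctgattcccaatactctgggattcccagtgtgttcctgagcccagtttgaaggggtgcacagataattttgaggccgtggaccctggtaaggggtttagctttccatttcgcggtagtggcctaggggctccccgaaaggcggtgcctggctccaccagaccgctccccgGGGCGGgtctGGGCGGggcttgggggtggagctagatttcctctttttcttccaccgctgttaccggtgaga

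The Vegfc window had 71.6% GC and 2 GC boxes, the Vegfa window 59.2% GC and 2 GC boxes, and the Esm1 window 44% GC and 0. Over all RefSeq windows of this length in the mouse, 32.7% held a GC box. The letters ACGTG, a form of the core of the hypoxia response element, were searched on both strands (ACGTG or CACGT). They were in none of the 3 windows shown and in 16.6% of all 32851 windows. The other form of the core, GCGTG, was not searched for, and those letters stand in the Esm1 window. RefSeq lists a second start site for Vegfa, whose window (chr17:46025164-46025413, minus strand) overlaps exons and is not shown. It held 1 match to ACGTG or CACGT, so that these letters were in 1 of the 12 windows of the 10 genes. A window that lacks a motif says only that those letters are not in these 250 bases.

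Among the ligands, hypoxia raised Vegfc 2.47-fold and Pgf 2.78-fold in vehicle-treated mice, while the tests of Vegfa and Vegfb did not pass. The comparison asks what 8 days of hypoxia changed in the absence of the drug. Of the 10 genes, 2 were higher (Vegfc, Pgf) and 3 lower (Kdr, Nrp1, Esm1) by edgeR's quasi-likelihood test at a Benjamini-Hochberg adjusted p under 0.05. Among all genes tested 26.3% were called, 13.5% higher and 12.8% lower. The median log2 fold change of the 10 genes was −0.12, against −0.0038 over all genes tested. In 5 of the 10 (Vegfb, Vegfc, Pgf, Kdr and Esm1) no hypoxia vehicle library overlapped a normoxia vehicle library, which held for 14% of all genes tested.

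**Figure D1:**
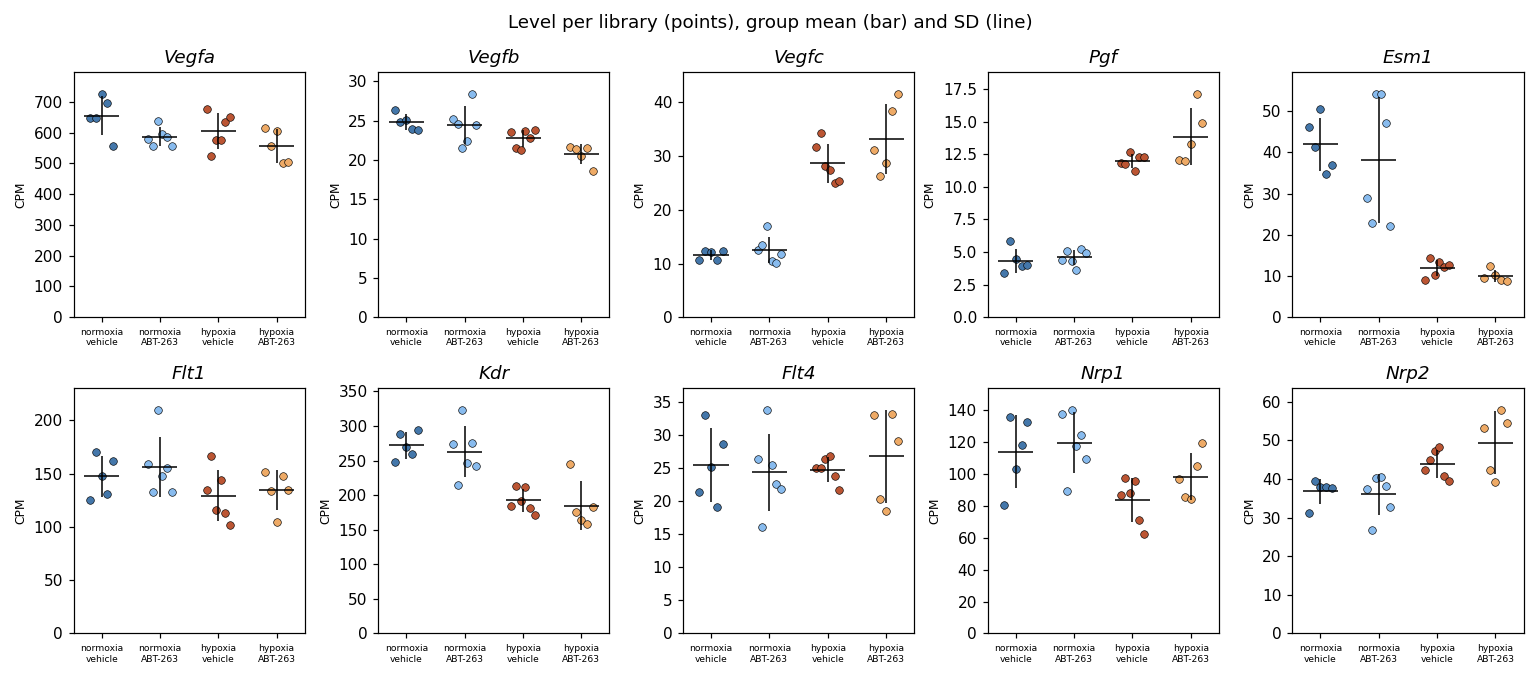
Level of each of the 10 genes in CPM (vertical axes, starting at 0) in the 22 libraries, by group. Points are libraries, bars are group means and vertical lines are SD. Vegfc and Pgf sit higher and Esm1 lower in both hypoxia groups than in either normoxia group, without overlap, while Vegfa overlaps between all groups.

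Vegfc (ENSMUSG00000031520; GRCm38 chromosome 8, 54077606 to 54187096, plus strand), the lymphangiogenic ligand of FLT4, was at 10.7, 12.4, 12.1, 10.6 and 12.4 CPM in the normoxia vehicle libraries. In the hypoxia vehicle libraries it ran from 25.0 to 34.3 CPM with a median of 27.8. Every hypoxia library was above every normoxia library. The means were 11.6 ± 0.896 CPM (SD, n = 5) in normoxia and 28.7 ± 3.67 CPM (SD, n = 6) in hypoxia, a log2 fold change of 1.30 ± 0.13 (SE; edgeR adjusted p = 7.88e-08).

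Pgf (ENSMUSG00000004791; chromosome 12, 85166635 to 85177790, minus strand) encodes placental growth factor, which binds FLT1 and not KDR. Its normoxia vehicle libraries held 3.36, 5.84, 4.50, 3.95 and 3.98 CPM. The hypoxia vehicle libraries lay close together, from 11.2 to 12.7 CPM with a median of 12.1. This gave a log2 fold change of 1.47 ± 0.13 (SE; edgeR adjusted p = 1.03e-08), or 2.78-fold with a 95% interval of 2.31 to 3.34.

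Vegfa (ENSMUSG00000023951; chromosome 17, 46016993 to 46032369, minus strand), the main ligand of KDR, was at 648, 648, 725, 697 and 558 CPM with normoxia and vehicle. With hypoxia and vehicle it ran from 523 to 677 CPM with a median of 606. The groups overlapped, and the highest hypoxia library (677) was below the highest pair of normoxia libraries. Its log2 fold change was −0.11 ± 0.08 (SE; edgeR adjusted p = 0.337). The 95% interval ran from 0.823-fold to 1.04-fold, below the intervals of Vegfc and Pgf throughout. Markers of alveolar type 1 cells, the epithelium that covers most of the alveolar surface, summed to between 6111 and 8455 CPM in normoxia vehicle and between 6783 and 8486 CPM in hypoxia vehicle libraries, with 2 of 14 higher and 0 lower. Alveolar type 2 markers summed to between 32544 and 44302 CPM over all 22 libraries, with 1 of 11 higher and 4 lower in hypoxia with vehicle. Over all genes tested 13.5% were higher and 12.8% lower. The part of these cells in the level of Vegfa was not tested.

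Vegfb (ENSMUSG00000024962; chromosome 19, 6982473 to 6987651, minus strand), an FLT1 ligand with a metabolic role in endothelium and heart, was at 26.4, 24.8, 25.1, 23.9 and 23.9 CPM in normoxia with vehicle. Its hypoxia vehicle libraries ran from 21.3 to 23.8 CPM with a median of 23.2. The groups did not overlap, by a narrow margin, and the log2 fold change was −0.13 ± 0.07 (SE; edgeR adjusted p = 0.199).

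Among the receptor kinases Kdr fell and Flt1 and Flt4 did not pass the test. Kdr (ENSMUSG00000062960; chromosome 5, 75932827 to 75978458, minus strand) was at 248, 288, 270, 260 and 294 CPM in normoxia with vehicle. Its hypoxia vehicle libraries ran from 171 to 214 CPM with a median of 188. All 6 were below the lowest normoxia vehicle library. The log2 fold change was −0.50 ± 0.10 (SE; edgeR adjusted p = 0.000894), or 0.707-fold with a 95% interval of 0.611 to 0.819.

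Flt1 (ENSMUSG00000029648; chromosome 5, 147561604 to 147726011, minus strand) was at 126, 171, 148, 131 and 162 CPM in normoxia with vehicle. In hypoxia with vehicle it ran from 102 to 166 CPM with a median of 125. The groups overlapped over most of their range, with a log2 fold change of −0.19 ± 0.13 (SE; edgeR adjusted p = 0.288). Counts per gene do not separate the membrane receptor from the soluble form. Flt4 (ENSMUSG00000020357; chromosome 11, 49609263 to 49652739, plus strand) was at 21.4, 33.0, 25.1, 19.1 and 28.6 CPM in normoxia with vehicle and from 21.7 to 26.8 CPM, median 25.0, in hypoxia with vehicle. The hypoxia libraries lay inside the range of the normoxia libraries, with a log2 fold change of −0.04 ± 0.17 (SE; edgeR adjusted p = 0.894).

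The neuropilins moved in opposite directions by their estimates, and Nrp1 passed the test. Nrp1 (ENSMUSG00000025810; chromosome 8, 128358604 to 128503363, plus strand), the co-receptor of KDR in blood vessels, was at 80.8, 135, 103, 118 and 133 CPM in normoxia with vehicle. Its hypoxia vehicle libraries ran from 62.3 to 97.2 CPM with a median of 87.4. Normoxia vehicle replicate 1, at 80.8 CPM, lay inside the hypoxia range and the other 4 lay above it. For Nrp1 the log2 fold change was −0.45 ± 0.14 (SE; edgeR adjusted p = 0.0189). The call was lost without normoxia vehicle replicate 2 (adjusted p = 0.0594) or replicate 5 (0.0601), and with no filter on low counts (0.0522).

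Nrp2 (ENSMUSG00000025969; chromosome 1, 62703285 to 62818695, plus strand), the co-receptor of FLT4 on lymphatic and venous endothelium, was at 31.1, 39.5, 37.9, 37.9 and 37.7 CPM in normoxia with vehicle. It ran from 39.4 to 48.2 CPM, median 43.5, in hypoxia with vehicle. The overlap came to the highest normoxia library and the lowest hypoxia library. The log2 fold change of 0.25 ± 0.10 (SE) did not pass (edgeR adjusted p = 0.0750). It passed in a fit of the compared groups only (0.0211), with treatment read from the tag (0.0287) and without normoxia ABT-263 replicate 2 (0.0399), a library that enters this comparison only through the joint fit.

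Esm1 (ENSMUSG00000042379; chromosome 13, 113209659 to 113218098, plus strand), also called endocan and often used to mark the tip cells of growing vessels, showed the largest change of the 10 genes. It was at 46.3, 41.4, 50.4, 34.7 and 36.9 CPM in normoxia with vehicle. In hypoxia with vehicle it ran from 8.92 to 14.3 CPM with a median of 12.5. The groups lay far apart, at 41.9 ± 6.5 CPM (SD, n = 5) and 12.0 ± 2.0 CPM (SD, n = 6). Its log2 fold change was −1.80 ± 0.22 (SE; edgeR adjusted p = 4.45e-06), or 0.286-fold with a 95% interval of 0.210 to 0.391.

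**Figure D2:**
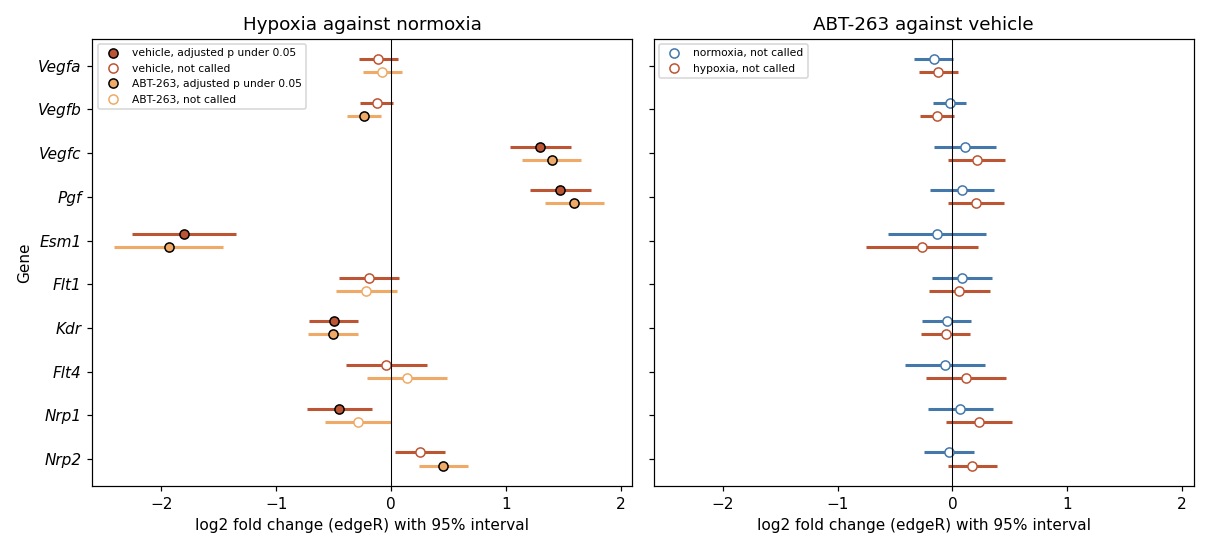
Log2 fold change of each gene with its 95% interval from edgeR, for hypoxia against normoxia (left) and ABT-263 against vehicle (right). Filled points passed an adjusted p under 0.05. In hypoxia, Vegfc and Pgf lie right of 0 and Kdr and Esm1 left of 0 in both treatments, and no gene is filled on the right.

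With ABT-263, hypoxia changed 6 of the 10 genes. Vegfc, Pgf and Nrp2 were higher and Vegfb, Kdr and Esm1 lower, while 39.2% of all genes tested were called, 17.9% higher and 21.3% lower. The median log2 fold change of the 10 genes was −0.14, against −0.02 over all genes tested. This comparison uses no library of the one in vehicle-treated mice, although both came from 1 fit. In 3 of the 10 (Vegfc, Pgf and Esm1) the hypoxia and normoxia libraries did not overlap, which held for 17.6% of all genes.

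Vegfc ran from 10.03 to 16.9 CPM, median 12.2, in normoxia with ABT-263 and was at 31.1, 26.2, 28.7, 38.3 and 41.5 CPM in hypoxia with ABT-263. Its log2 fold change was 1.40 ± 0.13 (SE; edgeR adjusted p = 8.36e-09). Pgf ran from 3.66 to 5.26 CPM, median 4.64, and then stood at 12.0, 12.0, 13.3, 17.1 and 14.9 CPM. Replicates 4 and 5 of hypoxia with ABT-263 were the highest libraries for both ligands. Pgf had a log2 fold change of 1.60 ± 0.13 (SE; edgeR adjusted p = 1.35e-09).

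Vegfa ran from 556 to 639 CPM, median 584, in normoxia with ABT-263 and was at 616, 557, 605, 503 and 504 CPM in hypoxia with ABT-263. Its log2 fold change, −0.07 ± 0.08 (SE), did not pass (edgeR adjusted p = 0.506). Vegfb ran from 21.5 to 28.4 CPM, median 24.5, and then stood at 21.7, 21.4, 20.5, 21.6 and 18.6 CPM. Hypoxia replicates 1 and 4 just reached the normoxia range and the other 3 lay below it. The fall of Vegfb, a log2 fold change of −0.23 ± 0.07 (SE; edgeR adjusted p = 0.0121), was not called without hypoxia ABT-263 replicate 5 (0.0578), with no filter on low counts (0.0667) or in a fit of the compared groups only (0.0594).

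Kdr ran from 215 to 323 CPM, median 260, in normoxia with ABT-263. It was at 245, 175, 164, 158 and 182 CPM in hypoxia with ABT-263. Replicate 1, one of the libraries with conflicting labels, stood inside the normoxia range and the other 4 below it. The log2 fold change was −0.51 ± 0.10 (SE; edgeR adjusted p = 0.000478), and −0.60 without the 3 libraries with conflicting labels (adjusted p = 0.000127).

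Nrp2 ran from 26.9 to 40.7 CPM, median 37.8, in normoxia with ABT-263 and was at 53.2, 42.2, 39.4, 57.8 and 54.5 CPM in hypoxia with ABT-263. One hypoxia library, replicate 3, lay in the normoxia range. Its log2 fold change was 0.45 ± 0.10 (SE; edgeR adjusted p = 0.00121). Nrp1 ran from 89.1 to 140 CPM, median 121, and then stood at 96.6, 85.7, 84.4, 105 and 120 CPM. The log2 fold change of Nrp1, −0.28 ± 0.14 (SE), did not pass (edgeR adjusted p = 0.109), but did without normoxia ABT-263 replicate 2 (log2 fold change −0.34, adjusted p = 0.0426).

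Normoxia ABT-263 replicate 2 was the lowest library of its group for Kdr, Flt4, Nrp1 and Nrp2, and its mean log2 CPM over 16 endothelial markers (7.44) was also the lowest. Replicate 3 was the highest for Flt1, Kdr, Flt4 and Nrp1, and had the highest endothelial value (7.88). The part of this spread in the comparisons was not tested. Flt1 (log2 fold change −0.21 ± 0.13 SE, edgeR adjusted p = 0.194) and Flt4 (0.14 ± 0.17, adjusted p = 0.546) did not pass in hypoxia with ABT-263.

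Esm1 spread widely in normoxia with ABT-263. Its 6 libraries held 28.9, 22.9, 54.0, 54.1, 47.0 and 22.2 CPM, so 3 lay above the mean of the vehicle group and 3 below its lowest library. In hypoxia with ABT-263 it was at 9.59, 12.4, 10.1, 9.12 and 8.67 CPM, below every normoxia library. Its log2 fold change was −1.94 ± 0.23 (SE; edgeR adjusted p = 1.97e-06). Replicates 2 and 6, the lowest pair for Esm1 in normoxia with ABT-263, were among the highest libraries on the second principal component, at 22.3 and 27.2. No wide gap set them apart, with hypoxia ABT-263 replicate 5 at 20.5 and normoxia ABT-263 replicate 1 (Esm1 at 28.9 CPM) at 15.7. Whether the features of replicates 2 and 6 bear on Esm1 was not tested.

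ABT-263 changed none of the 10 genes at the threshold. In normoxia 0 of 10 passed edgeR's test (0.535% of all genes did, 0.108% higher and 0.427% lower), and in hypoxia 0 of 10 (0.301% did, 0.114% higher and 0.186% lower). At an unadjusted p under 0.05 the counts were also 0 and 0, against 2166 and 2385 of all 16638 genes tested. DESeq2 and limma-voom called 0 of the 10 in both. Over all genes DESeq2 called 324 in normoxia and 247 in hypoxia, and limma-voom 109 and 9. With so few genes called anywhere, a count of 0 among 10 says little about these genes. The log2 fold changes with ABT-263 ran from −0.16 (Vegfa) to 0.11 (Vegfc) in normoxia and from −0.27 (Esm1) to 0.23 (Nrp1) in hypoxia. No gene had groups without overlap in either comparison, which held for 2.12% and 1.98% of all genes. For Kdr the 95% interval of the fold with ABT-263 was 0.834 to 1.12 in normoxia and 0.830 to 1.12 in hypoxia. In hypoxia its log2 fold change with ABT-263 was −0.06, and it was −0.17 without hypoxia ABT-263 replicate 1 (edgeR adjusted p = 0.351), −0.19 without the 3 libraries with conflicting labels (0.380) and −0.23 with treatment read from the tag (0.435). For Esm1, which had the widest interval of the 10, it was 0.678 to 1.22 in normoxia and 0.592 to 1.17 in hypoxia.

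The difference between the 2 effects of ABT-263 (or of hypoxia with and without it) was tested as an interaction, and 0 of 10 passed by edgeR, DESeq2 or limma-voom, with 0 at an unadjusted p under 0.05. Across all genes 0 passed by edgeR (0%), with 1546 at an unadjusted p under 0.05, while DESeq2 called 17 and limma-voom 0. The calls of Nrp1 in hypoxia with vehicle alone, and of Vegfb and Nrp2 in hypoxia with ABT-263 alone, therefore do not show that the drug altered the response. The interaction was 0.17 for Nrp1, −0.11 for Vegfb and 0.20 for Nrp2 on the log2 scale. Averaged over oxygen conditions, ABT-263 gave 0 calls of 10 by edgeR, DESeq2 and limma-voom (2.54% of all genes by edgeR, 1.23% higher and 1.31% lower). Over all genes DESeq2 called 793 and limma-voom 253. By edgeR 2883 of all 16638 genes tested had an unadjusted p under 0.05, and among the 10 it was 1 gene. That gene was Vegfa, with a log2 fold change of −0.14 ± 0.06 (SE; edgeR adjusted p = 0.199).

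The number of all genes called with ABT-263, against which these counts of 0 are read, itself rested on single libraries and on the treatment labels. In normoxia it was 89, and it ran from 1 (without vehicle replicate 4, or without ABT-263 replicate 4) to 183 (without vehicle replicate 2) as each library was left out. It moved by more than 1.5 times without normoxia vehicle replicate 2, 3, 4 or 5 and without normoxia ABT-263 replicate 1, 2 or 4. In hypoxia it was 50, and it ran from 3 (without vehicle replicate 2) to 228 (without ABT-263 replicate 1). There it moved by that much without hypoxia vehicle replicate 1, 2, 3 or 4, hypoxia ABT-263 replicate 1, 2, 4 or 5, normoxia vehicle replicate 5 or normoxia ABT-263 replicate 2. On average over oxygen conditions it was 423, and it ran from 164 (without hypoxia ABT-263 replicate 4) to 649 (without hypoxia ABT-263 replicate 1), with 12 of the 22 libraries moving it by that much. Without the 3 libraries with conflicting labels the counts were 16, 77 and 285, and with treatment read from the tag 0, 0 and 0.

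Ratios of a pair of genes within each library show whether the pair moved unequally, since library size cancels. Hypoxia shifted the balance of ligands away from Vegfa: the log2 ratio of Pgf to Vegfa rose by 1.58 with vehicle and 1.64 with ABT-263. That of Vegfc to Vegfa rose by 1.40 and 1.47 (exact two-sided permutation tests over libraries, adjusted p = 0.00649 for all 4, from a p of 0.00216, the smallest that 5 against 6 libraries can give). The ratio of Vegfb to Vegfa differed by −0.01 and −0.15, and neither passed the exact permutation test (adjusted p = 0.926 and 0.253). In all, 6 ratios were tested in 4 comparisons, and p was adjusted over all 24.

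The receptors also moved unequally. The log2 ratio of Flt4 to Kdr rose by 0.49 with vehicle and 0.64 with ABT-263, and that of Nrp2 to Nrp1 by 0.69 and 0.73 (exact permutation tests, adjusted p = 0.00649 for all 4). Nrp2 to Nrp1 went from −1.61 ± 0.20 (SD, n = 5) to −0.91 ± 0.17 (SD, n = 6) with vehicle, from −1.72 ± 0.12 to −0.99 ± 0.13 with ABT-263, and no hypoxia library overlapped a normoxia library of the same treatment. Flt4 and Nrp2, both known from lymphatic endothelium, thus gained on Kdr and Nrp1, although Flt4 itself passed the test in neither treatment. The log2 ratio of Flt1 to Kdr rose by 0.30 in both treatments (exact permutation tests, adjusted p = 0.0115 and 0.0208). It lost the call without normoxia vehicle replicate 1 or 4 (0.28 for both, adjusted p = 0.0571) and, with ABT-263, without any of 5 normoxia replicates (1, 2, 4, 5 and 6) or without hypoxia replicate 4 (0.22 to 0.32, adjusted p from 0.0571 to 0.0762). ABT-263 itself gave 0 calls of 12 in these ratios.

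**Figure D3:**
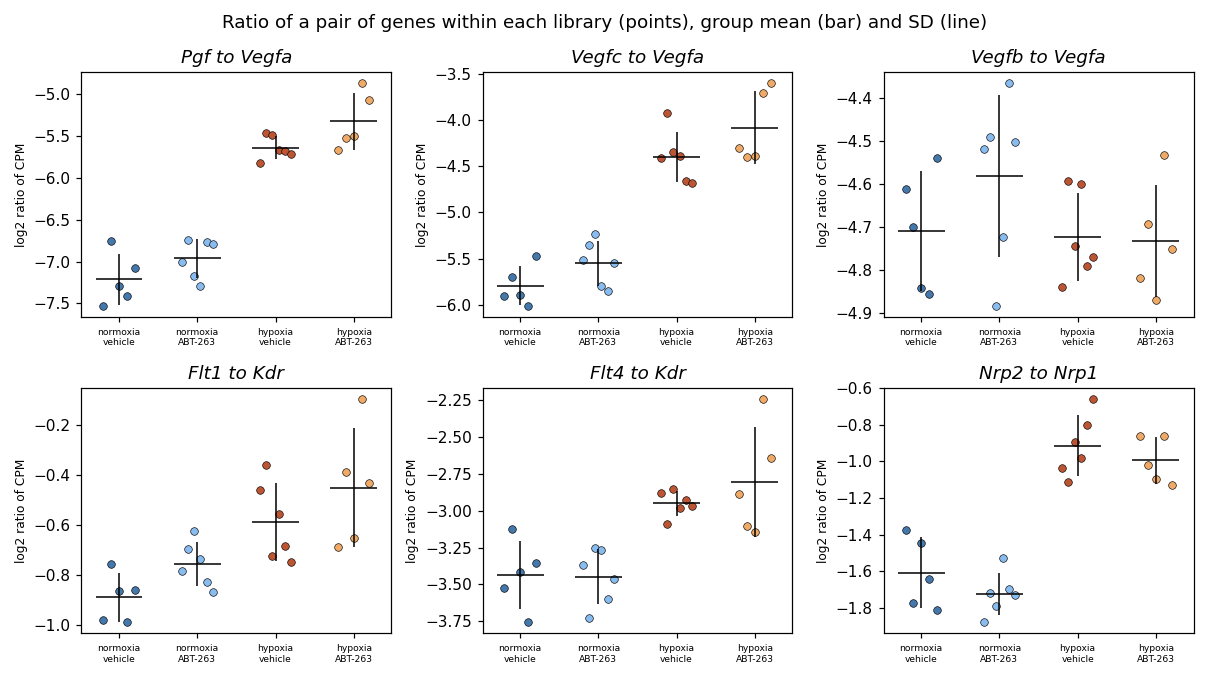
Log2 ratio of CPM within each library for 6 pairs of genes (vertical axes, log2 scale, different ranges), by group. Points are libraries, bars are means and lines are SD. Pgf and Vegfc gain on Vegfa, Flt4 on Kdr and Nrp2 on Nrp1 in hypoxia without overlap with normoxia of the same treatment, and Vegfb to Vegfa overlaps.

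The levels of the receptors, the co-receptors and Esm1 were also set against 16 endothelial markers. Which cells made these RNAs was not tested, so this scale does not place a change in endothelium. In hypoxia with vehicle 7 of the 16 fell and 3 rose (median log2 fold change −0.20), against 12.8% lower and 13.5% higher over all genes tested. Cdh5, the cadherin of endothelial junctions (−0.42 ± 0.15 SE, edgeR adjusted p = 0.0462), and the receptor kinase Tie1 (−0.31 ± 0.10, adjusted p = 0.0256) were among those that fell, while Pecam1 did not pass (−0.25 ± 0.11, adjusted p = 0.0921). With ABT-263, 3 fell and 4 rose (median −0.06), against 21.3% lower and 17.9% higher over all genes tested. The summed level of the list ran from 4245 to 5069 CPM in normoxia vehicle and from 3711 to 4855 CPM in hypoxia vehicle libraries.

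Relative to the mean of these markers in the same library, Kdr was lower in hypoxia, with a log2 difference of −0.30 with vehicle and −0.48 with ABT-263 (exact permutation tests, adjusted p = 0.0104 for both). Esm1 was lower with differences of −1.60 and −1.79 (exact permutation tests, adjusted p = 0.0104 for both), close to its differences on the CPM scale. Nrp2 was higher by 0.45 and 0.49 (exact permutation tests, adjusted p = 0.0104 and 0.0260). The Nrp2 call with ABT-263 was lost without the 3 libraries with conflicting labels (0.49, adjusted p = 0.0816) and without any of 5 normoxia ABT-263 replicates (1, 2, 3, 5 and 6) or hypoxia replicate 5 (0.44 to 0.51, adjusted p from 0.0544 to 0.0635).

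Nrp1 differed by −0.24 and −0.25 relative to the markers and did not pass (exact permutation tests, adjusted p = 0.130 and 0.0891). It passed without normoxia vehicle replicate 1 (−0.33, adjusted p = 0.0190) and, with ABT-263, without hypoxia replicate 4 (−0.29, adjusted p = 0.0490). Flt1 differed by −0.0018 and −0.17 (exact permutation tests, adjusted p = 0.981 and 0.203) and Flt4 by 0.18 and 0.16 (adjusted p = 0.204 and 0.539). ABT-263 gave 0 calls of 12 on this scale. Without hypoxia ABT-263 replicate 1 the count was 1, and it was also 1 without all 3 libraries with conflicting labels (Kdr in hypoxia, −0.27, exact permutation test adjusted p = 0.0317). In all, 24 differences were tested on this scale.

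Counts of markers of other cell types in hypoxia with vehicle are to be read against 13.5% higher and 12.8% lower over all genes tested. Some of these counts lie near those shares. Of 10 general capillary markers 6 fell and 2 rose in hypoxia with vehicle (median log2 fold change −0.70), and their summed level went from 1925 to 2493 CPM down to 1420 to 1869 CPM. Of 9 lymphatic markers tested 4 rose, Prox1, the transcription factor of lymphatic identity, among them (log2 fold change 1.01 ± 0.19 SE, edgeR adjusted p = 0.000349), and 1 fell, the hyaluronan receptor Lyve1 (−1.57 ± 0.25, adjusted p = 0.000125). Their summed level ran from 289 to 374 CPM in normoxia vehicle and from 275 to 361 CPM in hypoxia vehicle libraries, and the chemokine Ccl21a was listed at 0 in all 22. Of 11 pericyte markers 7 rose and 0 fell, and their summed level went from 602 to 866 CPM up to 933 to 1007 CPM. Of 12 fibroblast markers 2 rose and 0 fell, with summed levels of 3947 to 4489 CPM and 4432 to 5299 CPM. In the remaining lists, 5 of 10 artery markers rose and 2 fell, 1 of 13 aerocyte markers rose and 5 fell, and 0 of 8 vein markers rose and 2 fell. Of 10 smooth muscle markers 6 rose and 0 fell, of 14 macrophage and monocyte markers 4 rose and 3 fell, of 7 airway markers 1 rose and 2 fell, and of 8 cardiac muscle markers 0 rose and 2 fell. Summed levels in normoxia and hypoxia with vehicle ran from 1910 to 2543 and 2894 to 3780 CPM for artery, 3077 to 3987 and 2913 to 3502 CPM for aerocytes, and 1252 to 1694 and 1876 to 2439 CPM for smooth muscle. Such sums follow their most abundant genes. In normoxia with vehicle Mgp alone averaged 1549 CPM in the artery list, Postn 292 CPM in the pericyte list and Sftpc 25299 CPM in the alveolar type 2 list. Plvap averaged 499 CPM in the general capillary list in that group. Its fall in hypoxia with vehicle, given below among the target genes, enters the capillary sum. The artery markers that fell were Efnb2 and Hey1, and Cxcl12 stands on both the artery and the general capillary list.

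For hypoxia with ABT-263 the shares over all genes tested were 17.9% higher and 21.3% lower. There, 3 of the general capillary markers rose and 5 fell (median −0.34), and 9 pericyte markers rose and 0 fell (median 0.56). Of the smooth muscle markers 2 rose and 1 fell, with a median of −0.07 against 0.35 with vehicle, a difference between the comparisons that was not tested. Of the others, 5 artery markers rose and 2 fell, 3 aerocyte markers rose and 6 fell, 0 vein markers rose and 1 fell, 4 lymphatic markers rose and 2 fell, and 4 fibroblast markers rose and 0 fell. The macrophage and monocyte list had 6 higher and 3 lower, the alveolar type 1 list 3 and 1, the alveolar type 2 list 1 and 4, the airway list 0 and 4, and the cardiac muscle list 0 and 3. Summed levels in normoxia and hypoxia with ABT-263 ran from 1761 to 2667 and 1598 to 1976 CPM for general capillaries, 587 to 810 and 996 to 1186 CPM for pericytes, and 1382 to 1755 and 1769 to 2115 CPM for smooth muscle. With ABT-263 as with vehicle, the part of these cell types in the changes of Vegfc, Pgf, Kdr, Nrp1 and Esm1 was not tested.

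Set per kilobase of exon, so that genes can be compared with each other, Vegfa was the most abundant of the 10 in normoxia with vehicle at 153 ± 14.8 CPM per kb (SD, n = 5). Kdr followed at 30.1 ± 2.12, Esm1 at 19.99 ± 3.10 and Vegfb at 15.5 ± 0.646 CPM per kb. Nrp1 (11.7 ± 2.31) and Flt1 (10.9 ± 1.43) overlapped, as did Nrp2 (3.11 ± 0.276) and Flt4 (3.09 ± 0.673), with Vegfc between these pairs at 4.75 ± 0.366 and Pgf last at 1.49 ± 0.324 CPM per kb. The other neighbours in this order did not overlap between libraries.

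In hypoxia with vehicle Vegfa (142 ± 13.5 CPM per kb; SD, n = 6), Kdr (21.3 ± 1.91) and Vegfb (14.2 ± 0.685) stood first. Vegfc moved up to 11.7 ± 1.497 CPM per kb, where its libraries overlapped those of Vegfb above it and Flt1 (9.56 ± 1.77) below it. Nrp1 (8.53 ± 1.42) overlapped Flt1 and Esm1 (5.72 ± 0.953). Pgf at 4.14 ± 0.181 CPM per kb overlapped Esm1 and Nrp2 (3.70 ± 0.304), and Flt4 was last at 3.01 ± 0.224. Levels per kilobase use the union of annotated exons and would shift if a short isoform dominates.

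Other genes of the pathway, in lists chosen with earlier results of these data known, are given as counts, to be read against 13.5% higher and 12.8% lower with vehicle, and 17.9% and 21.3% with ABT-263, over all genes tested. Of 23 other ligands, ligand-processing factors and soluble or matrix regulators tested, 9 rose and 3 fell in hypoxia with vehicle (median log2 fold change 0.16), and 11 rose and 4 fell with ABT-263 (median 0.29). Vegfd, the other ligand of FLT4, rose, at 33.4 ± 3.13 CPM (SD, n = 5) in normoxia and 59.3 ± 6.43 CPM (SD, n = 6) in hypoxia, a log2 fold change of 0.83 ± 0.11 (SE; edgeR adjusted p = 3.59e-06), and by 0.95 ± 0.10 with ABT-263 (adjusted p = 2.36e-07). Both FLT4 ligands were thus higher in hypoxia in both treatments, while Flt4 did not pass. The semaphorin Sema3c (0.91 ± 0.13), the secreted angiogenesis inhibitor vasohibin Vash1 (0.97 ± 0.16) and, in the comparison with ABT-263, fibronectin Fn1 (1.06 ± 0.12) rose as well (log2 fold changes with SE). The matrix glycoprotein Emilin2 (−1.501 ± 0.18) and the endothelial semaphorin Sema3g (−0.97 ± 0.13) fell with vehicle.

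Of 23 receptor partners and phosphatases, 3 rose and 5 fell in hypoxia with vehicle (median −0.05), and 4 rose and 5 fell with ABT-263. Falls included ephrin-B2 (Efnb2, −1.12 ± 0.13), which takes part in VEGF receptor uptake, the neuropilin partner Plxna1 (−0.60 ± 0.08) and the phosphatase Ptpn1 (−0.34 ± 0.09). Mcam, which encodes a KDR-binding adhesion protein (0.48 ± 0.10), and the netrin receptor Unc5b (0.58 ± 0.13) rose. Values are log2 fold changes with SE.

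Of 43 genes of the intracellular relay, 9 rose and 11 fell with vehicle (median −0.08), and 7 rose and 12 fell with ABT-263. Rises included endothelial nitric oxide synthase Nos3 (0.67 ± 0.11), which went from 14.8 ± 1.38 to 23.5 ± 1.43 CPM, the Src-family kinase Yes1 (0.47 ± 0.07) and the adaptor Nck1 (0.44 ± 0.08). Prkcb, a protein kinase C isoform that lies downstream of KDR and is also abundant in B cells, was the one gene of the 4 pathway lists called with ABT-263 by edgeR, in normoxia. That was 1 of 43 relay genes and 0 of the other lists of 23, 23 and 43 tested, against 0.535% of all genes. The call rested on single libraries and on the treatment labels. Prkcb was at 12.8 ± 2.58 CPM (SD, n = 5) in normoxia with vehicle and 8.58 ± 0.958 CPM (SD, n = 6) with ABT-263, a log2 fold change of −0.57 ± 0.13 (SE; edgeR adjusted p = 0.0327). In hypoxia it was not called (−0.49 ± 0.13, edgeR adjusted p = 0.102, DESeq2 adjusted p = 0.0493). The call in normoxia was lost without normoxia vehicle replicate 3 (adjusted p = 0.0681) or 4 (0.179), without normoxia ABT-263 replicate 1 (0.0751), 4 (0.0672) or 6 (0.0626), without the 3 libraries with conflicting labels (0.0806), in a fit of the compared groups only (0.0630), without normoxia ABT-263 replicates 2 and 6 together (0.0615) and with treatment read from the tag (0.527). Averaged over oxygen conditions Prkcb was lower by edgeR (−0.53 ± 0.09, adjusted p = 0.00205), also with each of the 22 libraries left out, but not with treatment read from the tag (−0.36, adjusted p = 0.293).

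Of 43 target, tip cell and feedback genes, 10 rose and 10 fell in hypoxia with vehicle (median −0.16), and 13 rose and 14 fell with ABT-263 (median −0.06). The largest falls were in the diaphragm protein of fenestrae Plvap (499 ± 91.4 to 87.97 ± 15.9 CPM), the growth factor-binding protein Igfbp3 (141 ± 6.54 to 29.3 ± 9.73 CPM) and the Notch ligand Dll4 (62.3 ± 3.40 to 16.2 ± 0.636 CPM). Plvap also stands on the general capillary list. The Notch effector Hey1 fell by 1.12 ± 0.13 on the log2 scale and the carboxypeptidase inhibitor Lxn rose by 0.83 ± 0.08. Members of the list thus moved in both directions, in equal number with vehicle.

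**Figure D4:**
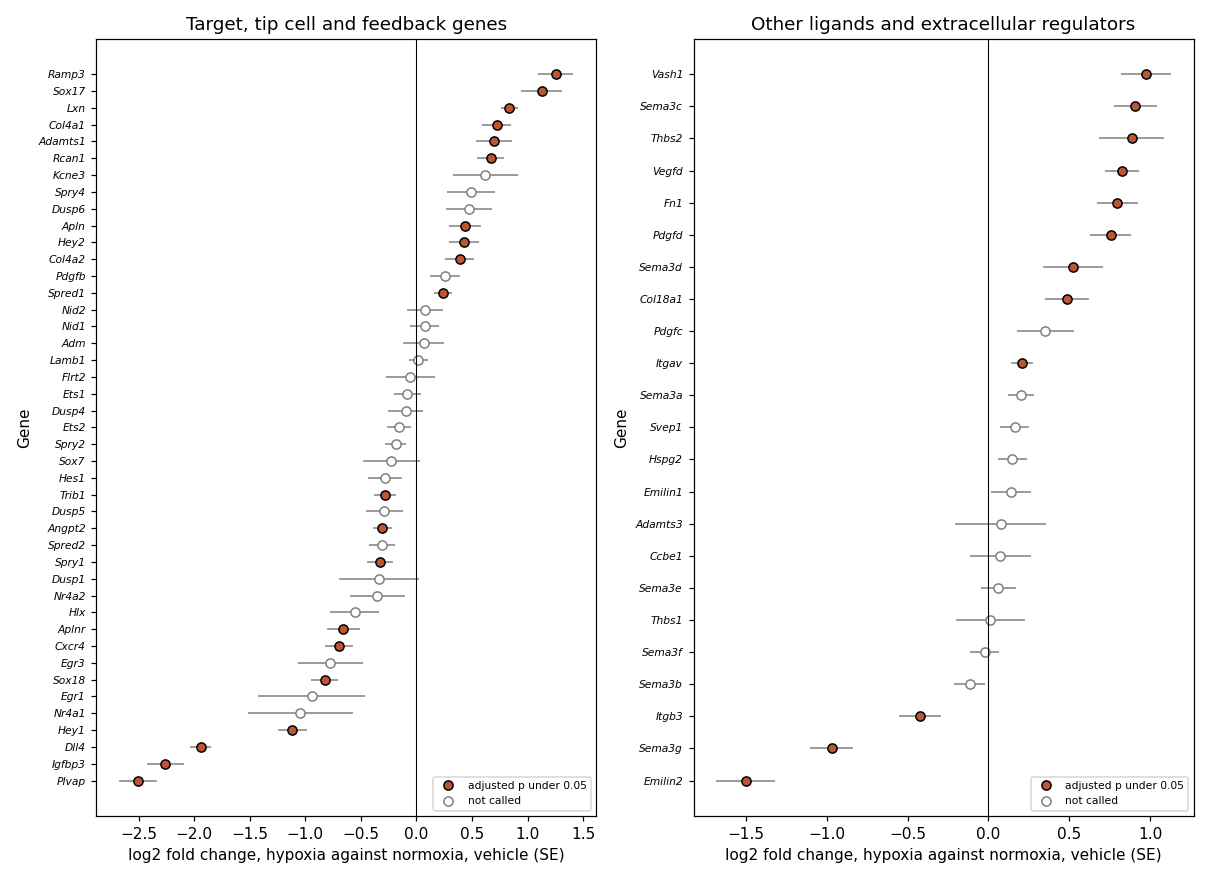
Log2 fold change with SE in hypoxia with vehicle for the target, tip cell and feedback genes (left) and the other ligands and extracellular regulators (right), ordered by size. Filled points passed an adjusted p under 0.05. Plvap, Igfbp3, Dll4 and Hey1 lie farthest left in the first panel, and Emilin2 and Sema3g in the second.

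The genes most like Vegfc, Pgf and Esm1 across the 22 libraries were found by the root mean square difference between log2 CPM values, each centred on its gene's mean, among 13242 genes. Kdr and Nrp1 were not included because their changes were under 1.5-fold. For Vegfc these were Reln (0.218), an extracellular glycoprotein, Tcim (0.223), a small regulator of transcription, and the chemokine Cxcl12 (0.228), against a median over genes of 0.736. For Pgf they were the collagen cross-linking enzyme Lox (0.222), Reln (0.237) and the matrix protein Mmrn1 (0.246), against a median of 0.812. For Esm1 they were Fmo1 (0.344), a flavin monooxygenase, Cd300lg (0.358), a capillary surface protein, and the glycosyltransferase Galnt15 (0.360), against 0.970. The nearest genes of Esm1 were farther from it than those of Vegfc and Pgf from theirs.

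Among them Reln had a log2 fold change of 1.47 ± 0.15 (SE) in hypoxia with vehicle. Reln and Mmrn1 belong to the lymphatic marker list, of which 4 of 9 rose and 1 fell with vehicle. Cxcl12 belongs to the general capillary and artery lists. In normoxia with ABT-263, Esm1 lay below all 3 of its nearest genes in replicates 1 and 6 and above all 3 in replicates 3, 4 and 5. This likeness is a description over libraries that share the 4 groups.

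**Figure D5:**
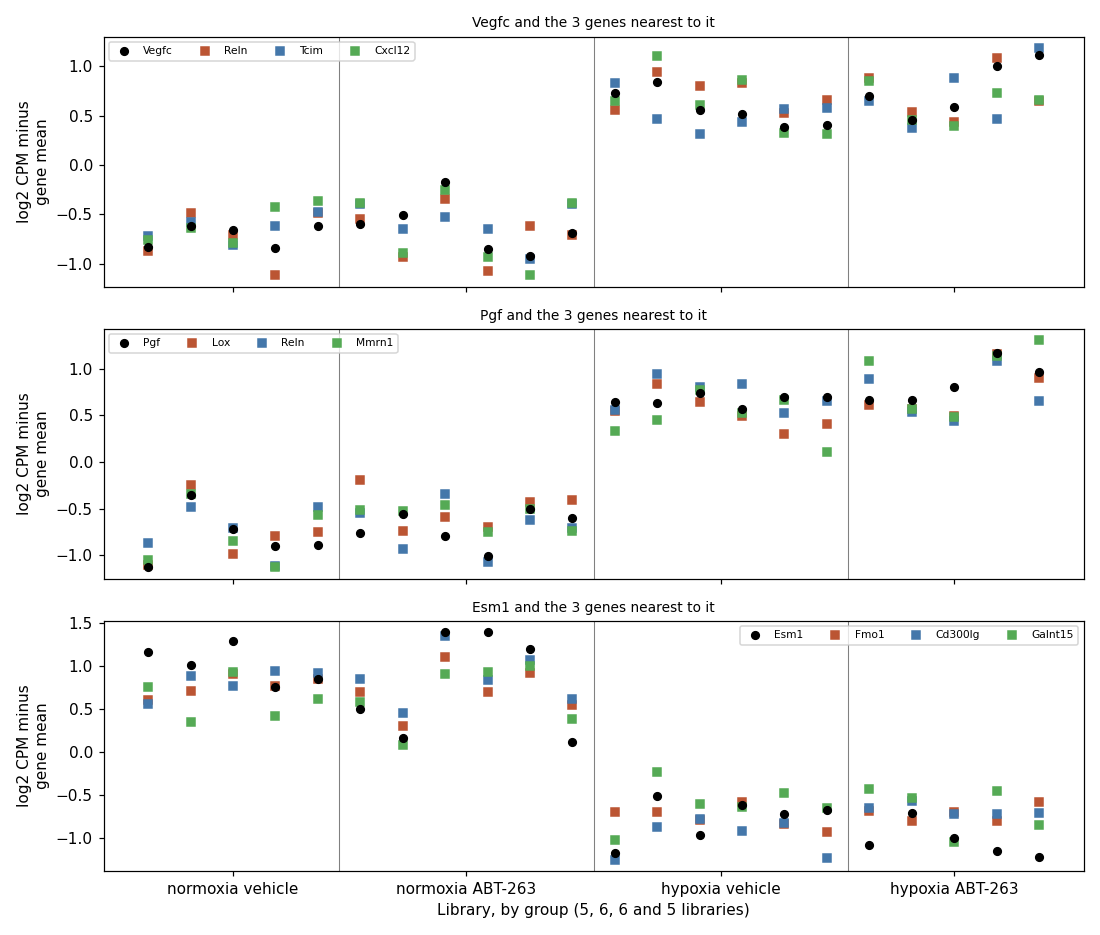
Log2 CPM minus the gene's mean over 22 libraries (vertical axis) for Vegfc, Pgf and Esm1 (circles) and the 3 genes nearest to each (squares), by library within group (horizontal axis). Each panel's genes change sides of 0 together between normoxia and hypoxia, and Esm1 has the widest spread in normoxia with ABT-263.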

How the data were processed

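Lung RNA was sequenced as 22 stranded TruSeq mRNA libraries on a NextSeq 500, per the labels' protocols. The deposited table holds expected counts per gene, and the submitters' processing notes name Trimmomatic, STAR, RSEM and GRCm38 (versions not given in the sources used here). Expected counts were rounded to whole numbers and filtered with filterByExpr (minimum count 10). All 4 groups were fitted together with TMM factors and edgeR 4.0.16's robust quasi-likelihood test (R 4.3.3), two-sided, with Benjamini-Hochberg adjustment over 16638 genes. SE is the log2 fold change divided by the square root of F, and intervals are 95%. CPM are TMM-scaled. Ratios and values relative to endothelial markers used log2 CPM (prior count 2) and exact permutation tests, enumerated over all splits with numpy 2.4.6.

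The members and gene lists were chosen with earlier results of these data known. All 10 members are named, and of each pathway list up to 5 called genes with the smallest p in hypoxia with vehicle and up to 2 from the other comparisons. Of these, 2 genes are not reported here. Of each marker list up to 3 markers in written order are named, and for Vegfc, Pgf and Esm1 the 3 nearest genes with a mean of at least 2 CPM. Of the lists, Vash2, Ackr1 and Ccl21a were not tested, and Figf and Cd146 are older names of Vegfd and Mcam. Marker lists covered general capillary, aerocyte, artery, vein, lymphatic, alveolar, pericyte, smooth muscle, fibroblast, macrophage, airway and cardiac muscle cells. The labels do not say that each library is a separate mouse, so p-values measure only the spread between these samples, which may be technical. All 50 pairs of libraries within groups differed by more than sampling noise, with 5.19 to 37.7 as the chi-square per gene. Over all genes the median SE of the log2 fold change was 0.11 (hypoxia with vehicle) or 0.16 (interaction).

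Alternatives were DESeq2 1.42.0, limma-voom (limma 3.58.1), RLE factors, unscaled library totals, no filter on low counts, a filter of 1 CPM in 4 or more libraries, haemoglobin genes left out, the compared groups only, the label alternatives, other prior counts (0.25 and 5), 4 endothelial markers in place of 16, and each library left out. A fit that drops both replicate 2 and replicate 6 of normoxia ABT-263 was chosen after seeing the data. The fit was tested on simulated counts in which 200 genes with a mean above 2 CPM were changed. For hypoxia with vehicle, among 16482 genes, the recovered share was 67.2% at 1.5-fold, 91% at 2-fold and 100% at 4-fold, and 7 unchanged genes were called. For ABT-263 in hypoxia, among 16502 genes, the shares were 74.6%, 94.0% and 100%, and 12 unchanged genes were called. The data had 4380 genes called in hypoxia with vehicle and 50 with ABT-263 in hypoxia. The adjusted threshold depends on such numbers, so these shares do not give the power of either comparison. Promoter sequences came from RefSeq (GRCm38.p6), which matched 10 of 10 members.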

Additional observations from a re-analysis of the deposited data

Results flagged for a closer look

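Of 88 sets of values examined (each gene's CPM, and each ratio or relative value, in each group of 5 or 6 libraries), 4 had a library far from the rest by Dixon's criterion. The cut-offs are those that flag about 1 in 20 sets of independent, normally distributed values. The 88 sets share genes and libraries, so this rate cannot say whether the 4 arose by chance. Flt1 in normoxia ABT-263 replicate 3 was at 209 CPM, against 133 to 159 CPM in the other 5 libraries. Kdr in hypoxia ABT-263 replicate 1 was at 245 CPM, against 158 to 182 CPM in the other 4. That library is one of the 3 whose title and treatment tag differ. Nrp2 in normoxia vehicle replicate 1 was at 31.1 CPM, against 37.7 to 39.5 CPM in the other 4. Kdr relative to the endothelial markers in hypoxia vehicle replicate 1 was −0.10 on the log2 scale, against 0.0788 to 0.144 in the other 5, and this library also carries conflicting labels.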

How the results depend on the processing

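Vegfc, Pgf, Kdr and Esm1 were called in both hypoxia comparisons, and Nrp2 in hypoxia with ABT-263, under all 33 alternatives run. The number of the 10 genes called lay between 4 and 6 for hypoxia with vehicle and between 5 and 7 with ABT-263 as each library was left out. In the same fits the number called over all genes ran from 3319 to 4606 and from 5649 to 6724. The number of the 10 called was 0 for ABT-263, its average and the interaction under every alternative. Nrp1, Nrp2 and Vegfb crossed the threshold under some settings, given beside their results. Without normoxia ABT-263 replicates 2 and 6 together, Nrp1 in hypoxia with ABT-263 passed (−0.40, adjusted p = 0.0272), as did Nrp2 in hypoxia with vehicle (0.25, adjusted p = 0.0431). Changes of sign were confined to results that were not called and lay near 0, and the cause was not tested. With treatment read from the tag the log2 fold change was 0.0284 for Flt4 in hypoxia with vehicle, −0.0241 for Nrp1 and 0.0123 for Esm1 with ABT-263 in normoxia, and −0.0118 for Flt1 and −0.0486 for Flt4 with ABT-263 in hypoxia. Without normoxia ABT-263 replicates 2 and 6 it was −0.0074 for Flt4 in hypoxia with ABT-263, and with ABT-263 in normoxia 0.0319 for Kdr, 0.0809 for Flt4, 0.0819 for Nrp2 and 0.13 for Esm1. Without the 3 libraries with conflicting labels the ratio of Vegfb to Vegfa in hypoxia with vehicle was 0.0106, Flt1 relative to endothelial markers 0.0077 (0.0654 with 4 markers), Nrp2 on that scale in hypoxia with ABT-263 0.49, and the number called with ABT-263 on that scale 1.

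With each library left out in turn, Flt4 in hypoxia with vehicle ran from −0.12 to 0.0694. In normoxia with ABT-263 the ranges were −0.0046 to 0.17 for Vegfc, −0.0086 to 0.20 for Pgf, −0.0324 to 0.13 for Flt1, −0.19 to 0.0352 for Flt4, −0.0451 to 0.13 for Nrp1 and −0.10 to 0.0291 for Nrp2. For ratios in hypoxia with vehicle they were −0.0491 to 0.0301 for Vegfb to Vegfa and 0.25 to 0.33 for Flt1 to Kdr, and with ABT-263 0.22 to 0.36 for Flt1 to Kdr. Relative to endothelial markers they were −0.0498 to 0.0263 for Flt1 and −0.33 to −0.20 for Nrp1 with vehicle, −0.29 to −0.21 for Nrp1 and 0.41 to 0.54 for Nrp2 with ABT-263, and 0 to 1 for the number called with ABT-263. With 1 library fewer, fewer splits raise the smallest p of the exact permutation tests. No paired analysis was possible because replicate numbers follow accession order and pair no mice. Depth limits Pgf most, the member with the fewest counts.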
